A study of Homo sapiens with 24 samples.

Results

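The transcripts examined were those of 62 genes from 9 families of developmental transcription factors, out of 9560 genes with a peak in any of the 4 deposited lists of m6A peaks. Members were chosen by symbol: FOX with a letter and a number, HOXA to HOXD with a number, and SOX, RUNX, TBX, GATA, TEAD, MEIS or the sine oculis homeobox stem (as in SIX2) with a number, leaving out 3 antisense genes. They comprised 18 FOX, 20 HOX, 6 SOX, 2 RUNX, 3 TBX, 3 GATA, 4 TEAD, 2 MEIS and 4 sine oculis homeobox genes. One of the MEIS genes is MEIS3P1, a transcribed pseudogene, and the other 61 members code for protein. The RefSeq gene table holds 46 FOX and 39 HOX protein-coding genes whose whole symbol is the family name and its number, with or without a closing letter, of which 18 and 20 had a listed peak, and 4 TEAD genes, all of which had one. The share of all protein-coding genes with a listed peak was not computed, so these counts stand without a value for all genes.

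N6-methyladenosine (m6A), a methylated adenosine inside messenger RNA, had been mapped by immunoprecipitation with an antibody to the mark and sequencing of the bound RNA beside its input. U2OS cells, an established line from a human osteosarcoma, were used as wild type (WT) or with METTL3, the catalytic subunit of the main m6A methyltransferase, knocked out (KO). All groups were grown with 10 µM BrdU, a thymidine analogue. The irradiated groups (labelled plus UV) received UVC at a dose labelled 50 J and the unirradiated groups (labelled minus UV) did not, and RNA was taken after 2 min and selected for poly(A). The 24 samples were 3 immunoprecipitated (IP) libraries of unirradiated WT cells, 4 of irradiated WT, 3 of unirradiated KO and 2 of irradiated KO, each with an input. The labels do not say whether the KO line is 1 clone, or whether replicates are separate cultures.

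Each condition has 1 peak list covering all its replicates, with positions in bases from the start of a RefSeq transcript and without a score or a read count. The depth behind a peak is therefore unknown, and differences between lists could neither be tested nor held against replicate error. A list also holds no transcript level, so a missing peak cannot be told apart from a transcript that was scarce in those libraries. For the same reason the knockout and the cell type could not be checked by level. The intervals given are 95% Wilson intervals and cover counting error alone. For shares of peaks they treat the peaks of a transcript as independent, and are too narrow where such peaks are missing together. The lists held 13989 peaks for unirradiated WT, 15465 for irradiated WT, 13852 for unirradiated KO and 9471 for irradiated KO cells. Where 4 values are given in a row below, they follow this order.

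Forkhead (FOX), homeobox (HOX, MEIS and the sine oculis group), HMG-box (SOX), Runt (RUNX), T-box (TBX), GATA and TEA-domain (TEAD) proteins bind DNA through different domains and set tissue identity, position along the body axis and cell fate. Their transcripts are often short-lived, and m6A, which is laid down mostly in long internal exons and around stop codons, is known to promote the decay of many messenger RNAs through YTH-domain reader proteins. RUNX2 is the defining factor of the osteoblast lineage from which osteosarcoma arises.

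In all, 43 members (69.4%, interval 57 to 79.4) had a peak in unirradiated WT, beside 74.6% of all genes with a peak in any list. In irradiated WT 48 members (77.4%, interval 65.6 to 86) had one, beside 83.4% of all genes. In unirradiated KO 36 members (58.1%, interval 45.7 to 69.5) had one, beside 72.9%, and in irradiated KO 31 members (50%, interval 37.9 to 62.1), beside 57.7%. All 4 shares were below those of all genes, and the interval left out the value for all genes in unirradiated KO alone. The members carried 86, 93, 73 and 58 peaks in the same order. Median peak width on the members was between 187.5 and 198 bases, against 176 to 189 bases for all genes, and between 48.8% and 58.1% of the listed members carried a single peak, against 47.3% to 55.2% of all listed genes.

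**Figure D1:**
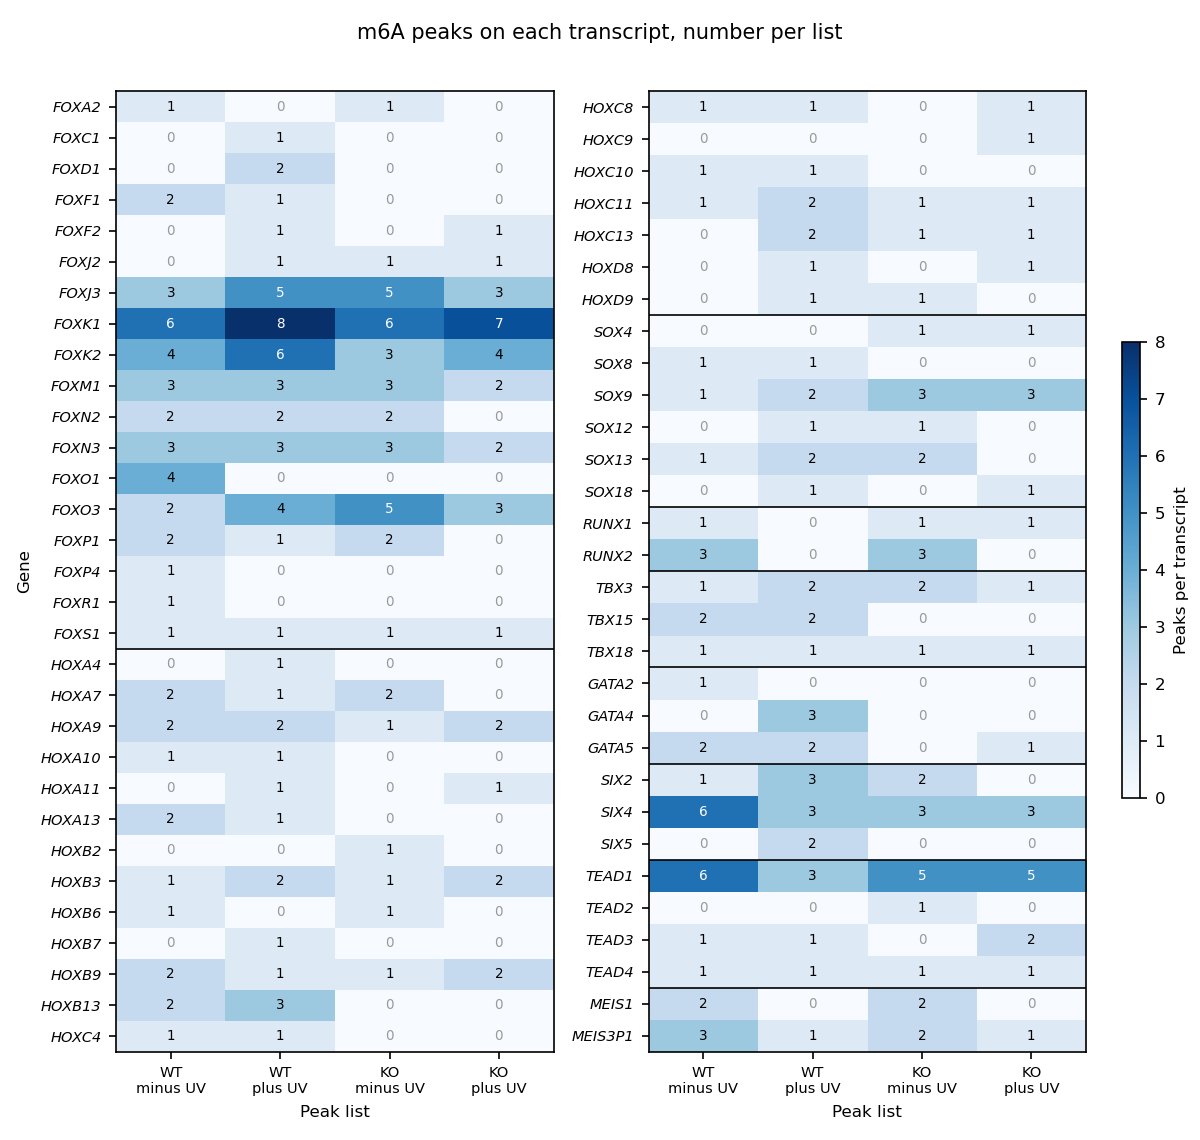
Number of m6A peaks on the transcript of each of 61 of the 62 genes (rows, grouped by family and separated by lines) in the 4 peak lists (columns; minus UV is unirradiated and plus UV irradiated), with the number printed in each cell and a colour scale from 0 to 8. FOXK1 has 6 to 8 peaks in every list, whereas FOXO1 has 4 peaks in unirradiated WT and 0 in the other lists.

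A core of 18 members (29%, interval 19.2 to 41.3, beside 41.2% of all genes) had a peak in every list. They were FOXJ3, FOXK1, FOXK2, FOXM1, FOXN3, FOXO3, FOXS1, HOXA9, HOXB3, HOXB9, HOXC11, SOX9, TBX3, TBX18, SIX4, TEAD1, TEAD4 and MEIS3P1. FOXK1, a forkhead repressor of autophagy and starvation genes (chromosome 7, 4682295 to 4771442, GRCh38), carried 6, 8, 6 and 7 peaks covering 1431, 1664, 1441 and 1588 bases, the most of any member in each list with regard to bases. Of its peaks, 6 stretches recurred in all lists, among them bases 2567 to 2756 and 3681 to 3989. The additional FOXK1 peaks were narrow: 2388 to 2491 and 7208 to 7323 in irradiated WT, each touching the peak before it, and 6481 to 6580 in irradiated KO. Its paralog FOXK2 (chromosome 17, 82519732 to 82604602) carried 4, 6, 3 and 4 peaks, and stretches at 2395 to 2583 and 2787 to 2946 were present in every list. Both FOXK transcripts thus had the highest number of listed peaks in irradiated WT. For FOXK1 this rests on counting touching peaks as separate.

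FOXM1, a forkhead activator of mitotic genes (chromosome 12, 2857680 to 2877174), had its widest peak at bases 2302 to 2840 in unirradiated WT and 2302 to 2830 in irradiated WT. The same peak lay at 2287 to 2840 in unirradiated KO and at 2302 to 2847 in irradiated KO. Another FOXM1 peak ended at base 2236 or 2237 in all lists. One at 491 to 700 in unirradiated WT had no counterpart in irradiated KO. TEAD4, a DNA-binding partner of the Hippo pathway coactivator YAP1 (chromosome 12, 2959397 to 3040676), had a single peak in each list, at 1552 to 1728, 1551 to 1728, 1545 to 1727 and 1548 to 1728. Its edges moved by no more than 7 bases between the 4 lists. TBX18, a T-box factor of mesenchymal development, had its single peak at 1307 to 1569, 1295 to 1582, 1298 to 1583 and 1284 to 1577. FOXS1, encoded by an intronless gene of 1302 bases, had a peak of 188, 198, 198 and 199 bases whose end lay 41 to 65 bases before the end of the gene, if the listed transcript spans the current RefSeq gene. FOXN3 carried 3 peaks in each list but irradiated KO, where it had 2 and the stretch at 1246 to 1487 was missing.

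**Figure D2:**
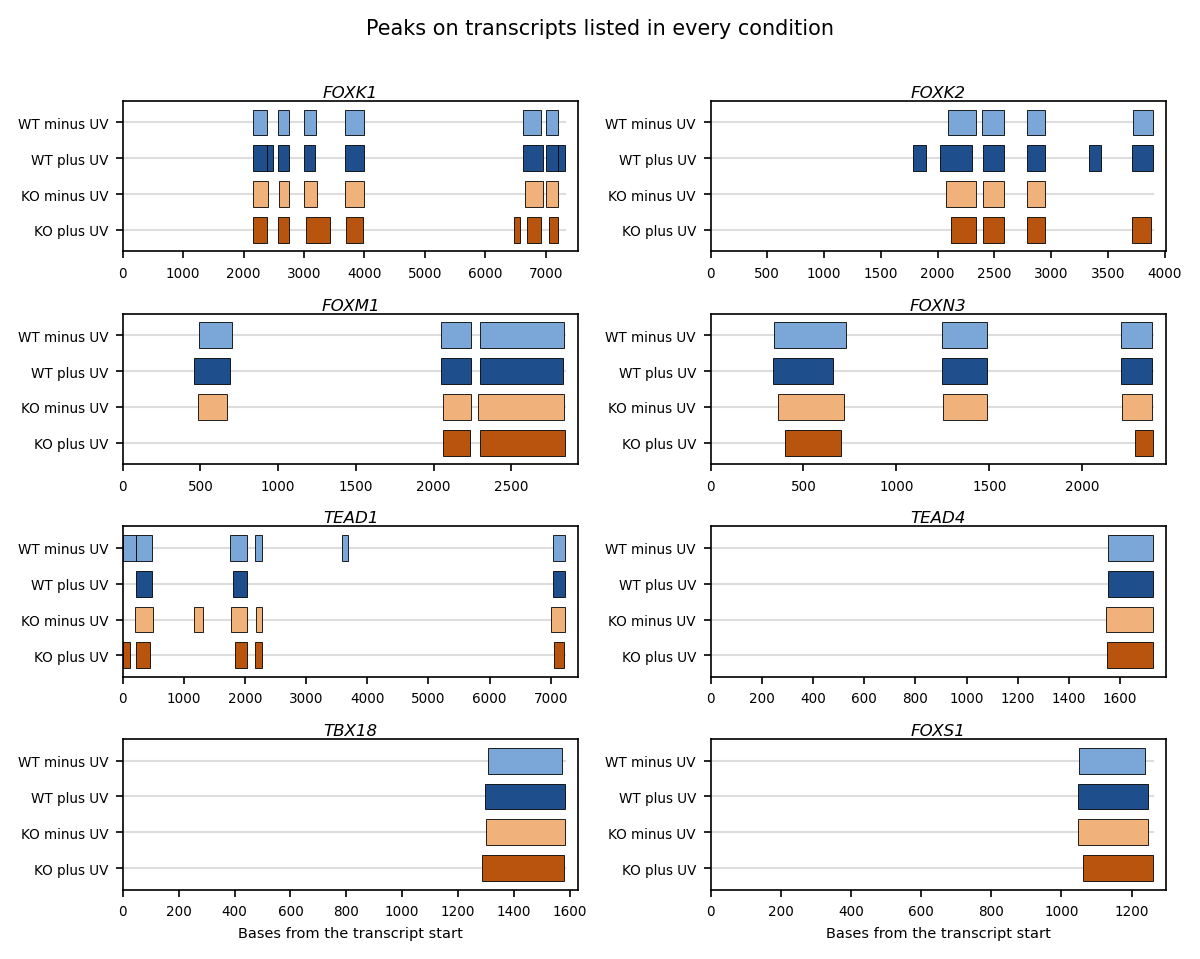
Position of each peak (boxes; horizontal axis in bases from the transcript start, up to the furthest peak end) in the 4 lists (rows) on 8 transcripts with a peak in every list. The TEAD4, TBX18 and FOXS1 peaks occupy the same place in all 4 lists, and the leftmost FOXM1 peak is absent from irradiated KO.

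The edges of peaks were compared where exactly 1 peak of each list fell in a shared stretch. Such stretches were built from overlapping peaks, so nearness of the edges follows in part from this choice. On members there were 25 such stretches, in which the 4 starts spread over a median of 36 bases and the 4 ends over a median of 14 bases. Over all genes there were 4483, with medians of 26 bases for the starts and 21 for the ends. The ends lay within 10 bases of each other in 9 member stretches (36%), beside 30.1% of all such stretches. Besides TEAD4 and FOXM1, FOXK2 showed this, with ends at 2582 or 2583 and at 2944 to 2946, and FOXK1, with ends at 2754 to 2756 and at 7205 to 7207. FOXJ3, a forkhead factor of metabolic control, had peaks in every list within 1226 to 1600 and 1962 to 2206, and a peak at 4261 to 4394 in irradiated WT and 4261 to 4393 in unirradiated KO alone. HOXB3 had its recurring peak at 1931 to 2298, 1901 to 2285, 1916 to 2272 and 1931 to 2310. HOXC11 had its own at 1120 to 1405, 1095 to 1298, 1098 to 1310 and 1110 to 1297. In irradiated WT a further HOXC11 peak, at 1299 to 1444, touched the one before it, so this stretch is not among the 25. Peaks of 1 list that touched each other end to start occurred 13 times on members. On FOXJ3 the join lay at bases 1395 and 1396 in irradiated WT and unirradiated KO and at 1400 and 1401 in irradiated KO. On MEIS1 it lay at 1952 and 1953 in unirradiated WT and at 1983 and 1984 in unirradiated KO.

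The 44 other members were missing from at least 1 list. In all, 57 members (91.9%, beside 92% of all genes) had a peak in a WT list and 44 (71%, interval 58.7 to 80.8, beside 81.5%) in a KO list. A WT list and no KO list held a peak on 18 members (29%, interval 19.2 to 41.3, beside 18.5%), and a KO list and no WT list on 5 (8.06%, beside 7.98%). Listed in unirradiated WT alone were FOXO1, FOXP4, FOXR1 and GATA2 (4 members, 6.45%, beside 4.4%), in unirradiated KO alone HOXB2 and TEAD2 (2 members, 3.23%, beside 4.24%), and in irradiated KO alone HOXC9 (1.61%, beside 1.75%). FOXN2, FOXP1, HOXA7, SOX13 and SIX2 were missing from irradiated KO alone (5 members, 8.06%, beside 13.5%). FOXJ2 and HOXC13 were missing from unirradiated WT alone (2 members, 3.23%, beside 4.62%), HOXC8, GATA5 and TEAD3 from unirradiated KO alone (3 members, 4.84%, beside 4.21%), and RUNX1 from irradiated WT alone (1.61%, beside 1.23%).

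Irradiated and unirradiated WT cells were set side by side to see whether peaks appear on RNA within minutes of UVC. A peak in irradiated WT and not in unirradiated WT was found on 14 members (22.6%, interval 14 to 34.4), beside 17.4% of all genes. They were FOXC1, FOXD1, FOXF2, FOXJ2, HOXA4, HOXA11, HOXB7, HOXC13, HOXD8, HOXD9, SOX12, SOX18, GATA4 and SIX5. The opposite, a peak in unirradiated WT and not in irradiated WT, was found on 9 members (14.5%, interval 7.83 to 25.3), beside 8.61%. They were FOXA2, FOXO1, FOXP4, FOXR1, HOXB6, RUNX1, RUNX2, GATA2 and MEIS1. Both intervals contained the share of all genes. There were 4 IP libraries behind the irradiated WT list and 3 behind the unirradiated one.

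Of these 14 members, 10 carried a single peak in irradiated WT. GATA4, a factor of heart and endoderm development (chromosome 8, 11676935 to 11760002), had 3 peaks in irradiated WT, at 1731 to 1940, 2311 to 2475 and 3121 to 3220, and 0 in every other list. FOXD1, known from kidney stroma and encoded by an intronless gene (chromosome 5, 73446266 to 73448777), had 2 peaks in irradiated WT, at 261 to 370 and 1391 to 1550, and none elsewhere. SIX5, a homeobox factor (chromosome 19, 45764785 to 45769252), had 2, at 121 to 302 and 340 to 440, in irradiated WT alone. FOXC1, a forkhead factor of mesenchyme, HOXA4 and HOXB7 had 1 peak each, of 160, 331 and 185 bases, in irradiated WT alone. The irradiated WT list was the sole list with a peak for these 6 members (9.68%, beside 6.97% of all genes).

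FOXO1, a forkhead factor that AKT kinases keep out of the nucleus (chromosome 13, 40555667 to 40666641), had 4 peaks in unirradiated WT. They lay at 1141 to 1380, 1541 to 1836, 2089 to 2261 and 2464 to 2600 and covered 846 bases, and the other lists had no FOXO1 peak. RUNX2 (chromosome 6, 45328330 to 45551082) had 3 peaks in unirradiated WT, at 1315 to 1528, 1892 to 2054 and 2106 to 2287, and 0 in irradiated WT. In unirradiated KO its 3 peaks lay at 1321 to 1530, 1844 to 1990 and 2102 to 2270, and irradiated KO again had 0. MEIS1, a homeobox cofactor of HOX proteins (chromosome 2, 66435125 to 66573869), had 2 touching peaks over 440 bases in unirradiated WT and 2 over 514 bases in unirradiated KO, and 0 in both lists with UV. RUNX1, the Runt factor of blood stem cells, had a peak of 111 bases in unirradiated WT, 169 in unirradiated KO and 122 in irradiated KO, and was missing from irradiated WT alone. The irradiated WT list thus held no peak on either RUNX transcript.

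The 14 members with a peak in the irradiated list of the WT pair had short genes, with a median genomic length of 4030 bases, and 1 of them was at least 50 kb long. The 9 members with a peak in the unirradiated list of the pair had a median of 56004 bases, and 5 of them were at least 50 kb long. Over all genes the corresponding medians were 27614 and 40752 bases, and 32.9% and 44.3% were at least 50 kb long. The members fall into families of different gene size: all members had a median of 8475 bases and all genes with a peak one of 33737 bases. In the KO pair the medians were 3930 bases for the 8 members in the irradiated list alone and 9236 for the 13 in the unirradiated list alone. Members listed in 1 genotype of a pair had medians of 9527 (WT) and 5463 (KO) without UV. With UV these were 4896 and 5463. Medians well below that of all genes were thus not particular to the irradiated WT list. The part of gene length in these calls was not tested.

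**Figure D3:**
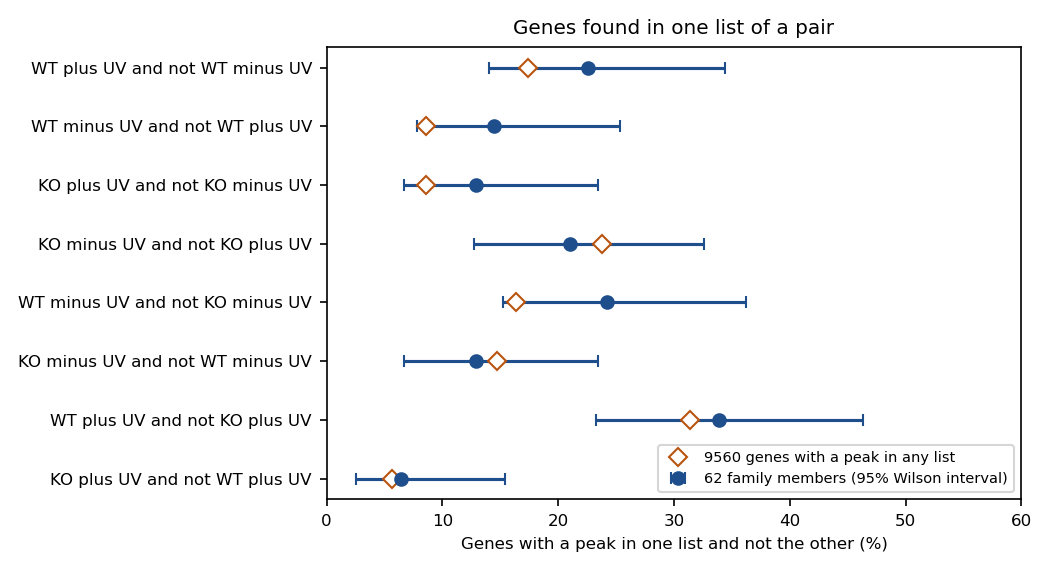
Percentage of genes with a peak in one list of a pair and not in the other, for the 62 family members (filled circles with 95% Wilson intervals for counting error) and for all 9560 genes (open diamonds), in the 4 comparisons and both directions. The diamonds lie within the intervals of the members in every row.

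At the level of peaks, 34 of 93 member peaks in irradiated WT (36.6%, interval 27.5 to 46.7) overlapped no unirradiated WT peak by at least 1 base, beside 30% of all peaks. In the other direction 28 of 86 (32.6%, interval 23.6 to 43) had no overlap, beside 22.4%, a value just below the interval. Of these 28 peaks, 15 lay on transcripts with no irradiated WT peak, where all peaks of a transcript are missing together. The interval treats them as independent and is too narrow, so no departure from all peaks can be read from it. On transcripts listed in both, 15 of 74 (20.3%) and 13 of 71 (18.3%) had none, beside 17.3% and 15% of all peaks.

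The same comparison was made in the cells labelled METTL3 KO. A peak in irradiated KO and not in unirradiated KO was found on 8 members (12.9%, interval 6.69 to 23.4), beside 8.62% of all genes. They were FOXF2, HOXA11, HOXC8, HOXC9, HOXD8, SOX18, GATA5 and TEAD3. A peak in unirradiated KO and not in irradiated KO was found on 13 members (21%, interval 12.7 to 32.6), beside 23.8%. They were FOXA2, FOXN2, FOXP1, HOXA7, HOXB2, HOXB6, HOXD9, SOX12, SOX13, RUNX2, SIX2, TEAD2 and MEIS1. The irradiated KO list came from 2 IP libraries and the unirradiated KO list from 3. Of the irradiated KO member peaks 17 of 58 (29.3%, interval 19.2 to 42) had no overlap in unirradiated KO, beside 22.6%, and of the unirradiated KO member peaks 32 of 73 (43.8%, interval 33 to 55.2) had none in irradiated KO, beside 47%. On transcripts in both of these lists the shares were 16.3% and 21.2%, beside 13.4% and 25% of all peaks.

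For some members the listing with and without UV was the same in both genotypes. FOXA2, HOXB6, RUNX2 and MEIS1 had a peak in both lists without UV and in neither list with UV (4 members, 6.45%, interval 2.54 to 15.4, beside 2.27% of all genes). FOXA2, a pioneer factor of endoderm and liver (chromosome 20, 22580998 to 22585490), had peaks at 1341 to 1710 in WT and 1491 to 1700 in KO, and HOXB6 had peaks at 205 to 450 and 321 to 470. The reverse pattern, a peak in both lists with UV and in neither without, was found on FOXF2, HOXA11, HOXD8 and SOX18 (also 4 members, 6.45%, beside 1.97%). Both shares of all genes were just below the interval, which rests on 4 members in each case. The intervals for a peak in any KO list, and for a WT list and no KO list, also left out the share of all genes. Intervals were made for many overlapping patterns, so some may leave it out by counting error alone. No departure of the members was tested. FOXF2, a forkhead factor of gut mesenchyme, had peaks at 1411 to 1640 in WT and 1402 to 1588 in KO. SOX18, a factor of lymphatic endothelium, had them at 881 to 1100 and 761 to 1010, HOXA11 at 851 to 1140 and 868 to 1063, and HOXD8 at 1303 to 1508 and 1321 to 1520. Each of these 4 transcripts carried 1 peak per list, and in each the WT and KO peaks overlapped.

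**Figure D4:**
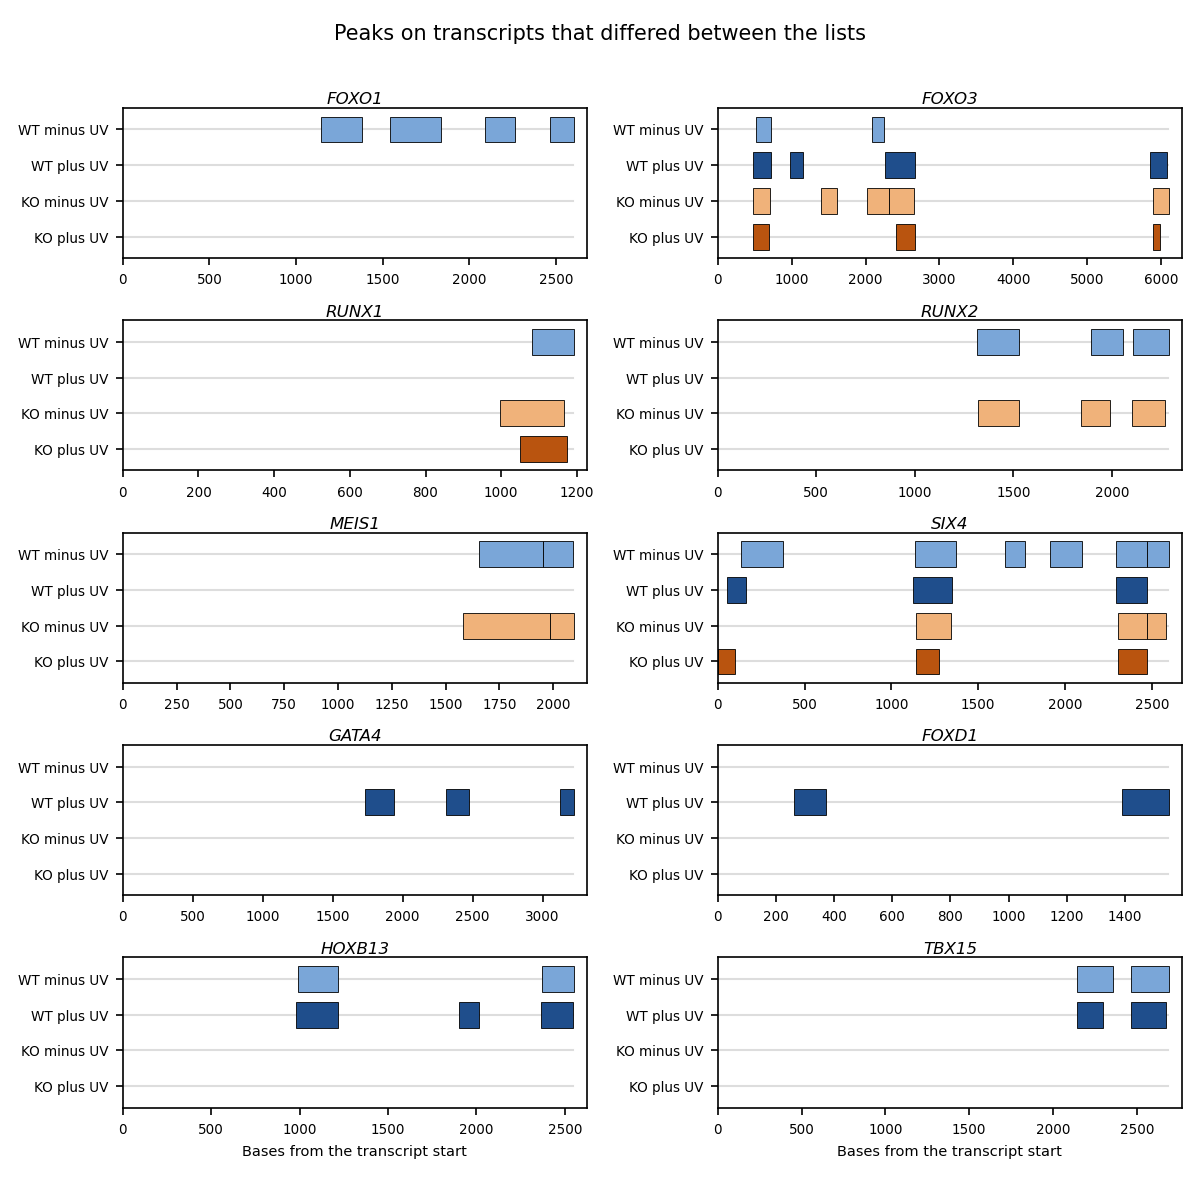
Position of each peak (boxes; horizontal axis in bases from the transcript start, up to the furthest peak end) in the 4 lists (rows) on 10 transcripts whose peaks differed between lists. FOXO1 has boxes in unirradiated WT alone and GATA4 and FOXD1 in irradiated WT alone, RUNX2 and MEIS1 have none in either list with UV, and HOXB13 and TBX15 have none in either KO list.

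WT and KO cells without UV, both with 3 IP libraries, were compared to see which peaks were listed in 1 genotype and not the other. The unirradiated KO list held 13852 peaks beside 13989 in unirradiated WT, and 31.1% of all its peaks had no overlap there. Most peaks were thus listed in cells labelled KO as well. Whether a peak missing from a KO list depended on METTL3 was not tested. A peak in unirradiated WT and not in unirradiated KO was found on 15 members (24.2%, interval 15.2 to 36.2), beside 16.4% of all genes. They were FOXF1, FOXO1, FOXP4, FOXR1, HOXA10, HOXA13, HOXB13, HOXC4, HOXC8, HOXC10, SOX8, TBX15, GATA2, GATA5 and TEAD3. The opposite was found on 8 members (12.9%, interval 6.69 to 23.4), beside 14.7%, each with 1 unirradiated KO peak. FOXJ2, HOXB2, HOXC13, HOXD9, SOX4, SOX12 and TEAD2 were among them. Of the unirradiated WT member peaks 31 of 86 (36%, interval 26.7 to 46.6) had no overlap in unirradiated KO, beside 32.1%, and of the unirradiated KO member peaks 19 of 73 (26%, interval 17.3 to 37.1) had none in unirradiated WT, beside 31.1%. On transcripts that both lists held, the shares were 12.7% and 16.9%, beside 18.3% and 19.8% of all peaks.

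Between the lists with UV, a peak in irradiated WT and not in irradiated KO was found on 21 members (33.9%, interval 23.3 to 46.3), beside 31.4% of all genes. The opposite was found on 4 members (6.45%, interval 2.54 to 15.4), beside 5.68%, and HOXC9, SOX4 and RUNX1 were among them. Of the irradiated WT member peaks 46 of 93 (49.5%, interval 39.5 to 59.4) had no overlap in irradiated KO, beside 51%, and 11 of 58 irradiated KO member peaks (19%, interval 10.9 to 30.9) had none in irradiated WT, beside 19.3%. Restricted to transcripts in both, the shares were 23% and 13%, beside 25.5% and 13.5% of all peaks. These lists came from 4 and 2 IP libraries.

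Both WT lists held a peak, and neither KO list did, for FOXF1, HOXA10, HOXA13, HOXB13, HOXC4, HOXC10, SOX8 and TBX15 (8 members, 12.9%, interval 6.69 to 23.4, beside 7.12% of all genes), of which 5 are HOX genes. HOXB13, the most posterior gene of its cluster (chromosome 17, 48724763 to 48728750), had peaks at 991 to 1217 and 2371 to 2549 in unirradiated WT. In irradiated WT it had them at 981 to 1215, 1901 to 2011 and 2364 to 2548, and the KO lists had none. TBX15, a T-box factor of limb and skeletal mesenchyme (chromosome 1, 118883047 to 118989510), had peaks at 2141 to 2356 and 2468 to 2689 in unirradiated WT and at 2141 to 2300 and 2463 to 2671 in irradiated WT. FOXF1, the paralog of FOXF2, had 2 peaks in unirradiated WT and 1 in irradiated WT, sharing the stretch at 1955 to 2120. Both KO lists held a peak, and neither WT list did, for 2 members (3.23%, beside 2%). SOX4, an HMG-box factor encoded by an intronless gene, was among them, with peaks at 2951 to 3140 in unirradiated KO and 2141 to 2310 in irradiated KO that did not overlap.

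HOX genes encode the homeodomain proteins of body-axis position and lie in 4 clusters. Of the 20 members, 12 had a peak in unirradiated WT, 17 in irradiated WT, 9 in unirradiated KO and 9 in irradiated KO, and 4 had one in every list. The shares of all genes were 74.6%, 83.4%, 72.9% and 57.7% for the lists and 41.2% for every list. By cluster, 6 of 11 HOXA, 6 of 10 HOXB, 6 of 9 HOXC and 2 of 9 HOXD genes had a peak in any list. Of genes numbered 9 to 13, 11 of 16 had a listed peak, and of those numbered 1 to 8, 9 of 23. The share of all protein-coding genes with a listed peak was not computed. These small counts by cluster and number therefore have no value for all genes beside them, and their differences were not tested. Of the WT pair of lists, 6 of the 20 HOX genes had a peak in the irradiated one alone, beside 17.4% of all genes, and 1, HOXB6, in the unirradiated one alone, beside 8.61%. In KO cells the corresponding numbers were 4, beside 8.62%, and 4, beside 23.8%. A total of 7 HOX genes had peaks in WT lists alone, beside 18.5% of all genes, and 2, HOXB2 and HOXC9, in KO lists alone, beside 7.98%.

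**Figure D5:**
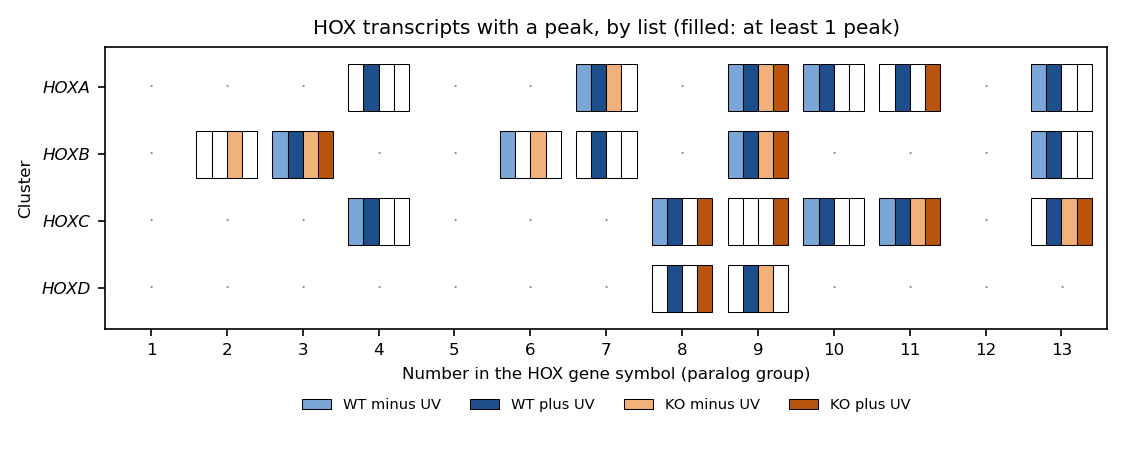
HOX genes by cluster (rows) and by the number in the symbol (columns), with 4 boxes per gene for the 4 lists, filled where the list held at least 1 peak on the transcript and white where it held none; a dot marks a position with no HOX gene among the members. HOXA9, HOXB3, HOXB9 and HOXC11 are filled in every list, and HOXA10, HOXA13, HOXB13, HOXC4 and HOXC10 in the WT lists alone.

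HOX genes with the same number are paralogs, and their peaks lay at like distances from the transcript start in some cases and far apart in others. HOXA10 had a peak at 1031 to 1239 in unirradiated WT and at 1001 to 1246 in irradiated WT. HOXC10 had one at 1041 to 1157 and at 911 to 1137 in the same lists, and neither had a KO peak. In irradiated WT, HOXA13, HOXB13 and HOXC13 had peaks at 944 to 1211, 981 to 1215 and 1051 to 1260, and HOXA7 and HOXB7 had them at 701 to 875 and 651 to 835. In that list HOXB13 also had peaks at 1901 to 2011 and 2364 to 2548, and HOXC13 had one at 1702 to 1923. The HOXC13 peak at 1051 to 1260 was in no other list, whereas that at 1702 to 1923 overlapped a peak in both KO lists. In the same list the HOXA4 peak, at 1058 to 1388, lay far from that of HOXC4, at 435 to 566, and the HOXD8 peak, at 1303 to 1508, far from that of HOXC8, at 689 to 904. All 4 genes numbered 9 were listed: HOXA9 and HOXB9 in every list, HOXC9 in irradiated KO alone at 851 to 1040, and HOXD9 in irradiated WT at 1051 to 1234 and in unirradiated KO at 1 to 190. The recurring HOXA9 peak lay at 781 to 999, 771 to 1010, 831 to 1010 and 821 to 1007. The recurring HOXB9 peak was split into 489 to 724 and 725 to 917 in unirradiated WT, spanned 488 to 866 in irradiated WT, and ended at 718 in both KO lists. The position of stop codons on these transcripts was not analysed here.

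FOXO3, like FOXO1 a forkhead target of AKT signalling (chromosome 6, 108559825 to 108684774), had 2, 4, 5 and 3 peaks over 364, 1065, 1297 and 576 bases. Its first peak was listed in every condition (521 to 714 in unirradiated WT, 475 to 717 in irradiated WT, 470 to 709 in unirradiated KO and 475 to 693 in irradiated KO). A peak far downstream was absent from unirradiated WT and lay at 5845 to 6080, 5891 to 6099 and 5891 to 5990 in the other lists. The FOXO1 and FOXO3 transcripts thus differed, the first being listed in unirradiated WT alone and the second having its fewest peaks there.

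TEAD factors bring the coactivators YAP1 and WWTR1 to DNA. TEAD1 (chromosome 11, 12674421 to 12944737) had 6, 3, 5 and 5 peaks over 1168, 711, 1047 and 841 bases, and stretches at 1 to 496, 1756 to 2038 and 7000 to 7237 held a peak in every list. Its peaks at 2171 to 2281 in unirradiated WT, 2181 to 2282 in unirradiated KO and 2161 to 2282 in irradiated KO had no counterpart in irradiated WT. TEAD3 had a peak of 170, 130 and 150 bases ending at 1990, 1990 and 1970 in all lists but unirradiated KO and a further peak at 2170 to 2380 in irradiated KO. TEAD2 had a single peak, at 107 to 290 in unirradiated KO. The 4 paralogs thus ranged from 1 list to all 4.

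SIX4, a homeobox factor of muscle precursors (chromosome 14, 60709539 to 60724351), had 6 peaks in unirradiated WT and 3 in each other list. Stretches at 1126 to 1370 and 2290 to 2595 held a peak in every list, and peaks at 1651 to 1770 and 1911 to 2097 were listed in unirradiated WT alone. SIX2, a factor of kidney progenitors (chromosome 2, 45005182 to 45009452), had 1, 3, 2 and 0 peaks, those at 1051 to 1270, 1001 to 1306 and 1021 to 1261 overlapping. SOX9, the HMG-box factor of cartilage (chromosome 17, 72121020 to 72126416), had 1, 2, 3 and 3 peaks. Its peak ending at 2226 to 2235 was in every list, that at 1541 to 1879 in irradiated WT had counterparts in both KO lists, and that at 821 to 930 had the same limits in both KO lists and was in no WT list. GATA5, a zinc-finger factor, had 2, 2, 0 and 1 peaks, while GATA2, a factor of blood progenitors, had a single peak of 100 bases, the narrowest width in the lists, in unirradiated WT.

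After overlapping peaks of all lists were merged, members carried 127 of 20811 stretches. A peak in every list was found in 32 (25.2%, beside 25.7% of all), and in irradiated WT alone in 19 (15%, beside 10.8%). Stretches with a peak in both WT lists alone numbered 11 (8.66%, beside 7.9%), on 9 genes, and those in both KO lists alone 2 (1.57%, beside 2.53%), one of them on SOX9. Stretches with a peak in a single list numbered 13 for unirradiated WT (10.2%, beside 8.53%), 6 for unirradiated KO (4.72%, beside 8.68%) and 6 for irradiated KO (4.72%, beside 3.57%). Those in all lists but one numbered 9 without irradiated KO (7.09%, beside 12.4%), 6 without unirradiated KO (4.72%, beside 3.33%), 4 without unirradiated WT (3.15%, beside 3.78%) and 2, on RUNX1 and TEAD1, without irradiated WT (1.57%, beside 1.39%). Irradiated WT shared 5 stretches with unirradiated KO alone (3.94%, beside 4.91%), on FOXJ3, SOX12, SOX13, TBX3 and SIX2, and no member stretch was in unirradiated WT and irradiated KO alone (0%, beside 0.831%). Those in both lists without UV alone numbered 8 (6.3%, beside 3.7%), of which 3 lay on RUNX2, and those in both lists with UV alone 4 (3.15%, beside 1.98%).

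Peaks at the start of the transcript were few. Of 310 member peaks in all lists 9 (2.9%), on 5 members, began within the first 50 bases, beside 9.81% of all peaks. They lay on HOXA9 (from base 15, 21 and 6 in unirradiated WT, irradiated WT and irradiated KO), SIX2 (from base 1 in irradiated WT and unirradiated KO), TEAD1 (from base 2 in unirradiated WT and 1 in irradiated KO), HOXD9 and SIX4 (from base 1 in unirradiated KO and irradiated KO, respectively). The first 30 bases after the RefSeq gene start (GRCh38.p14, minus strand in each case) are shown for the 3 of these 5 genes found in the reference table of gene starts, as the stretch in which these peaks begin if the listed transcript starts there. Capitals would mark GGAC, a common core of m6A sites.
HOXA9: gccaccaagttgttacatgaaatctgcagt
SIX2: aagaaagctgagagccagctagacgggagg
SIX4: gccatatagtatgcagcaaccggaggagtc
These lie at chr7:27165508-27165537, chr2:45009423-45009452 and chr14:60724322-60724351. GGAC, searched in the direction of transcription, was absent from the first 50 bases of all 3, and was present in those of 18.9% of the 35116 genes of the table. Absence is thus the usual case. The peaks reach beyond these 50 bases, so whether they hold GGAC is not known.

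Of 40 partners and regulators of these factors (PBX and PKNOX cofactors, CBFB, the YAP1 and Hippo proteins, EYA, TLE and AKT proteins among them), 31 had a peak in any list. Of the 31, 24 had one in unirradiated WT, 25 in irradiated WT, 21 in unirradiated KO and 13 in irradiated KO. The shares of all genes were 74.6%, 83.4%, 72.9% and 57.7%, also lowest in irradiated KO, whose list came from 2 IP libraries. A peak in every list was found on 12 of the 31, beside 41.2% of all genes. CBFB, the partner that does not itself bind DNA and stabilises DNA binding by RUNX proteins, had 1, 2, 1 and 1 peaks, and PBX2, a cofactor of HOX proteins, 3 in each list. YAP1 had 3, 3, 2 and 2 peaks, while its relative WWTR1 had 1 in unirradiated WT and 0 elsewhere. The Hippo kinases LATS1 and LATS2 had 2, 3, 1 and 0 and 2, 2, 3 and 0. With UV, 13 of the 31 had a peak in WT and not in KO, beside 31.4% of all genes, and 1, TLE5, in KO and not in WT, beside 5.68%. Of 12 osteoblast markers 6 had a peak in any list, including RUNX2, COL1A1, SPARC and SPP1, and SP7, ALPL and BGLAP had none. None of 6 blood markers had a peak, and 2 of 6 epithelial, 2 of 6 neuronal and 1 of 5 endothelial markers did. For these marker counts, and for the 31 of 40 partners, the share of all reference genes with a listed peak was not computed.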

How the data were processed

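The deposited files are 4 peak lists, 1 per condition, whose values have no unit of signal (other): per the labels each covers all replicates of its condition, and each entry names a RefSeq transcript and where along it a peak begins and ends. The submitters' processing notes name TopHat2 2.0.14 and hg38, with reads of 50 bases per the labels. How peaks were called, at what threshold, and how inputs entered were not given in the sources used here.

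Transcripts were matched to symbols and gene coordinates through the RefSeq gene table (GRCh38.p14), 9563 of 9674 being matched. Each member was listed on 1 transcript. Peaks overlapping by at least 1 base on the same transcript counted as shared, and positions count both ends. Shares carry 95% Wilson intervals (scipy 1.17.1). The counting of overlaps was checked on a copy of the unirradiated WT list with peaks removed at random and the rest shifted slightly. Kept peaks overlapped their originals by design, so this checked the counting alone and not how real lists differ. No test was made, each condition having 1 list.

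Members, partner genes and markers were chosen with earlier results of these data known. Positions are given for the 10 members longest by summed peak length among those in every list and for members listed in 1 list alone with at least 2 peaks there. They are also given for members differing by 3 or more peaks in a comparison, and for paralogs that are compared. The positions of HOXC11 fall outside these rules. FOXA2, FOXC1, FOXF1, FOXF2, FOXS1, GATA2, HOXA4, HOXA11, HOXB6, HOXB7, HOXD8, MEIS1, RUNX1, SOX4, SOX18, TBX15, TBX18, TEAD2, TEAD3 and TEAD4 were added after their values were seen. Alternatives were whole symbols, peaks of at least 150 bases, no copy-numbered transcripts, an overlap of 50% of the shorter peak, shared transcripts only and, added later, joined abutting peaks. One member counted among the 62 and 1 partner gene are not reported here by name.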

Additional observations from a re-analysis of the deposited data

Results flagged for a closer look

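In 8 members (12.9%, beside 14.5% of all genes) the number of peaks differed in opposite directions with UV in the 2 genotypes, and in 7 of them it was higher with UV in WT and lower with UV in KO, as in 1141 of the 1390 such genes among all genes. Each genotype has 1 list with and 1 without UV, so the difference was not tested, and the irradiated KO list rests on 2 IP libraries. With the WT lists before the KO lists and the unirradiated list of each first, FOXJ3 had 3, 5, 5 and 3 peaks, FOXO3 2, 4, 5 and 3, and SIX2 1, 3, 2 and 0, so that the WT difference exceeded the KO difference by 4 in each. SOX13 had 1, 2, 2 and 0 peaks, a difference of 3. TBX3, the T-box factor of limb and mammary development, had 1, 2, 2 and 1 peaks, and HOXD9 and SOX12 had 0, 1, 1 and 0, a difference of 2 in each. HOXB9 alone went the other way, with 2, 1, 1 and 2 peaks and a difference of -2. The 2 unirradiated WT peaks of HOXB9 touched each other, and joining them leaves 1 peak in that list. FOXJ3 had touching peaks in every list but unirradiated WT, so its difference depends in part on counting touching peaks apart.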

How the results depend on the processing

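Of 79 recomputed values over 21 results, 72 stayed within 1.5 times the count or within the interval of the share. This held for every value with whole symbols only, which left out MEIS3P1, with peaks of at least 150 bases, without copy-numbered transcripts, on which no member was listed, with an overlap of 50% of the shorter peak, and with abutting peaks joined. The 7 others are shares of member peaks without an overlap taken on transcripts that both lists hold, which by construction leaves out peaks on transcripts listed once. For irradiated WT against unirradiated WT the share became 20.3%, and for unirradiated WT against irradiated WT 18.3%. For irradiated KO against unirradiated KO it became 16.3%, and in the other direction 21.2%. For unirradiated WT against unirradiated KO it became 12.7%, in the other direction 16.9%, and for irradiated WT against irradiated KO 23%. No paired analysis was possible because each condition has 1 list without replicate values, which also kept replicates from being left out in turn. Depth could not be assessed, and the number of IP libraries behind a list, 2 to 4, cannot be told apart from its condition.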

Other observations

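The 3 antisense genes left out by the rule had peaks of their own. MEIS1-AS3, a long noncoding RNA beside MEIS1 (chromosome 2, 66423342 to 66433470, GRCh38), had 3 peaks in each list but irradiated KO, where it had none. They lay at 253 to 491, 827 to 1010 and 1541 to 1640 in unirradiated WT, and at 258 to 470, 817 to 1004 and 1403 to 1627 in irradiated WT. In unirradiated KO they lay at 256 to 450, 797 to 1017 and 1541 to 1646. MEIS1 itself had no peak in irradiated WT, so that the transcripts of these neighbouring genes differed there. FOXD2-AS1 and FOXN3-AS1 each had 1 peak, at 956 to 1150 and 651 to 756, in unirradiated KO alone.

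Of the 13 pairs of touching peaks on members, 3 lay on FOXJ3 and 2 each on FOXK1, MEIS1 and SIX4. On SIX4 the join lay at 2470 and 2471 in unirradiated WT and at 2472 and 2473 in unirradiated KO, while the irradiated WT and irradiated KO peaks there ended at 2470 and 2469.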
